A study of Mus musculus with 6 samples.

Results

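The 9 genes described here encode enzymes and vesicle transporters that make, store and break down the monoamines dopamine, noradrenaline and serotonin. These genes are Gch1, Th, Tph1, Ddc, Dbh, Slc18a1, Slc18a2, Maoa and Maob. They were taken by gene symbol from the 18749 named genes of a mouse whole-genome array, and all of them were present, with 13 of the 41174 probes. Tested lines were 3 called SMC, set against 3 called non-SMC; the labels do not spell out the abbreviation. Each was a primary cell line from a C57BL/6J mouse, grown out of a lung tumour in a small cell lung carcinoma model in which the mice carried conditional Rb1 and Trp53 alleles, so lines of both groups share that genotype. The labels tie 1 SMC and 1 non-SMC line together as a pair, in pairs R716T2, R1563 and R1611, called pairs 1, 2 and 3 below. By their labels, pair 2 came from a male and the others from females; neither the age of the mice nor the means of deleting the alleles is given in the sources used here. One array per line measured total RNA, so each group has n = 3 lines, each a single line, and the spread between them is that between lines of different tumours.

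Monoamines are made in a short chain of steps. Gch1 encodes GTP cyclohydrolase, which opens the synthesis of tetrahydrobiopterin, the cofactor that tyrosine hydroxylase (Th) and tryptophan hydroxylase (Tph1) need to start catecholamine and serotonin synthesis. Aromatic amino acid decarboxylase (Ddc) then forms dopamine or serotonin, dopamine beta-hydroxylase (Dbh) turns dopamine into noradrenaline, the vesicular monoamine transporters (Slc18a1, Slc18a2) load the amines into secretory vesicles, and the monoamine oxidases (Maoa, Maob) of the outer mitochondrial membrane degrade them. Pulmonary neuroendocrine cells, a known origin of small cell lung carcinoma, store serotonin, and Ddc has long been used as a marker of neuroendocrine lung tumour cells.

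Promoter windows are described because windows of Gch1, Th, Tph1, Slc18a2, Dbh and Maoa carry the same short element, TGACG, while those of Ddc lack it. The windows of Dbh and Maoa and the farther upstream window of Tph1 are not printed. A link between the element and the signals was not tested. RefSeq (GRCm38.p6) gives 300-base windows, 250 before to 50 after the annotated start, for 7 of the 9 genes, 9 windows in all. The sequences below are written 5′ to 3′ on the gene's strand, and capitals mark every match on either strand. The motifs were TGACGTCA (the cyclic AMP response element, CRE), its half-site TGACG, and the E-boxes CAGCTG and CACCTG. Also marked were the GATA-type element AGATAA and TGANTCA, an AP-1-like pattern that is looser than the AP-1 element, since N is any base.
Ddc, farther upstream start, chr11:11898095-11898394, minus strand: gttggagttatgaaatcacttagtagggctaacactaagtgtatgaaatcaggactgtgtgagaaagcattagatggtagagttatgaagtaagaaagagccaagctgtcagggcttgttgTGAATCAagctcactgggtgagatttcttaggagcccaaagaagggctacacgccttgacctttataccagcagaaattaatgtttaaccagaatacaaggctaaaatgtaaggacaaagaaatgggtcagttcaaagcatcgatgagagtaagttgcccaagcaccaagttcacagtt
Ddc, inner start, chr11:11890359-11890658, minus strand: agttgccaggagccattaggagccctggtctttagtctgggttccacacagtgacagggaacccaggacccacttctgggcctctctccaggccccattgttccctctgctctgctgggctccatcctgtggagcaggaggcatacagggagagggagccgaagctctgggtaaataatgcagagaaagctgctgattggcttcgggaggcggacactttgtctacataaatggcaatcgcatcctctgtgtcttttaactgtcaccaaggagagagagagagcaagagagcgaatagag
Tph1, inner start, chr7:46667328-46667627, minus strand: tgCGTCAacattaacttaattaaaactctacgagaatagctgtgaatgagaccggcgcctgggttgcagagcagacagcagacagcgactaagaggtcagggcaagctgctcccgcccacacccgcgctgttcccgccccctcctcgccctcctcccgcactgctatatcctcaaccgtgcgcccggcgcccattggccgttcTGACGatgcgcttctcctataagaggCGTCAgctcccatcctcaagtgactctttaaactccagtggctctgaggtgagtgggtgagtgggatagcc
Th, chr7:142899946-142900245, minus strand: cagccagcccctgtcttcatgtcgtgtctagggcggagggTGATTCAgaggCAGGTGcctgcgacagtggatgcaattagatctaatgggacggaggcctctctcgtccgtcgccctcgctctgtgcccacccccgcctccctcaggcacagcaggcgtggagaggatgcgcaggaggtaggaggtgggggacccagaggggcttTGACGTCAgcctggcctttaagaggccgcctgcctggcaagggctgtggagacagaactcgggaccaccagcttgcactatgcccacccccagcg
Slc18a2, chr19:59260628-59260927, plus strand: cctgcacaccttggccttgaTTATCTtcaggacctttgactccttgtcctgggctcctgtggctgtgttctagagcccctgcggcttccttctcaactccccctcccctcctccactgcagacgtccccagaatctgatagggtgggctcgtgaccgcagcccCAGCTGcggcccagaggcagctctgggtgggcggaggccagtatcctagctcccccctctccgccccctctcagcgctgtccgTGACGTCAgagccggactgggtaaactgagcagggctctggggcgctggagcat
Gch1, chr14:47189364-47189663, minus strand: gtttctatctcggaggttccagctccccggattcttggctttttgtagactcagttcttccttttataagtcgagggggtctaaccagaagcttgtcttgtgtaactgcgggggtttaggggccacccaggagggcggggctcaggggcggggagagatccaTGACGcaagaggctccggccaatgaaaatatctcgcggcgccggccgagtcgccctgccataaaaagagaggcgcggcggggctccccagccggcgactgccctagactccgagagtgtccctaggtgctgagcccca

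The Th window holds the full CRE starting 45 bases before the annotated start, and the Slc18a2 window holds one starting 4 bases before it. Only 1.79% of the 32851 mouse windows of this length hold that element. The half-site, which also lies inside every full CRE, was found in 7 of 9 windows (Th, Slc18a2, Dbh, Maoa, Gch1 and both of Tph1), against 20.8% of all windows. By gene, it was found in 6 of the 7 genes with a window. Neither Ddc window holds it. The Ddc window at the farther upstream start has a match to the looser TGANTCA pattern, with A as its centre base. The Th window has a match too, with T as its centre base on the printed strand. With any centre base, that pattern is present in 2 of 9 windows here and in 7.81% of all windows. The GC content of the windows ran between 41.3% and 64.3%, against a median of 52.7% over all windows. These letter matches describe the sequence and say nothing of a factor bound there.

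On each array 64.1% to 68.5% of probes were well above background, and no probe was saturated. Levels are given as log2 signal above or below the 75th percentile of the line's own array, so that 1 unit is a 2-fold step, and differences are SMC minus non-SMC. Signals of different genes are not set against each other. By the brighter probe of each gene, Rb1 read 0.63, 0.63 and 0.27 in SMC lines, against -2.07, -0.38 and -2.09 in non-SMC lines, and Trp53 lay between -0.36 and 0.14; where these probes lie relative to the deleted part was not examined. Among 10 neuroendocrine markers, all were well above background on every SMC array, and 8, 10 and 10 on the arrays of non-SMC replicates 1 to 3. Their summed linear signal (1 being the 75th percentile of an array) was 246 to 349 in SMC lines, against 30.6, 105 and 18.4 in non-SMC replicates 1 to 3, so non-SMC replicate 2 stands apart from the other non-SMC lines. The summed signal of 8 fibroblast markers was 0.303 to 1.7 in SMC lines and 113 to 381 in non-SMC lines. One slide carried 4 of the arrays, those of SMC replicates 1 and 2 with non-SMC replicates 2 and 3, and the other 2 arrays were on a slide each, so that only pair 2 was measured within a slide.

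Ddc was the most even of these genes in SMC lines and the least even in non-SMC lines. Its brighter probe read 5.71, 5.72 and 5.89 in SMC replicates 1 to 3, against -3.42, 4.55 and -1.39 in non-SMC replicates 1 to 3. Every SMC line lay above every non-SMC line, but non-SMC replicate 2 came within 1.17 of its SMC partner, whereas pairs 1 and 3 differed by 9.13 and 7.28. The SD was 0.10 between SMC lines, and 92.7% of features had a larger one there. Between non-SMC lines it was 4.14, and only 0.766% of features had a larger one. In RNA of whole cultures, fewer cells that express a gene and less RNA per cell cannot be told apart.

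The fitted Ddc difference was 5.86 ± 1.71 (SE, 3 pairs), which did not pass the test over all features (limma adjusted p = 0.145, unadjusted p = 0.0257). Without pair 2 the difference was 8.21 and passed (limma adjusted p = 0.0313), whereas it was 4.23 without pair 1 and 5.15 without pair 3 (limma adjusted p = 0.329 and 0.416). It was 8.18 with non-SMC replicate 2 alone left out and no pairing in the fit (limma adjusted p = 0.0034). Over all features, the number called higher in SMC rose from 31 to 523 without pair 2. It rose to 1561 without non-SMC replicate 2, so the gain was not particular to Ddc. On the shared slide, with 2 lines per group, the difference was 4.14. The second Ddc probe read 3.24, 3.35 and 3.03 in SMC replicates 1 to 3, against -6.12, 1.78 and -4.08 in non-SMC replicates 1 to 3, with a difference of 6.01.

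In the plot of signals by line, the SMC points of Ddc coincide while its non-SMC points span 7.97.

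**Figure D1:**
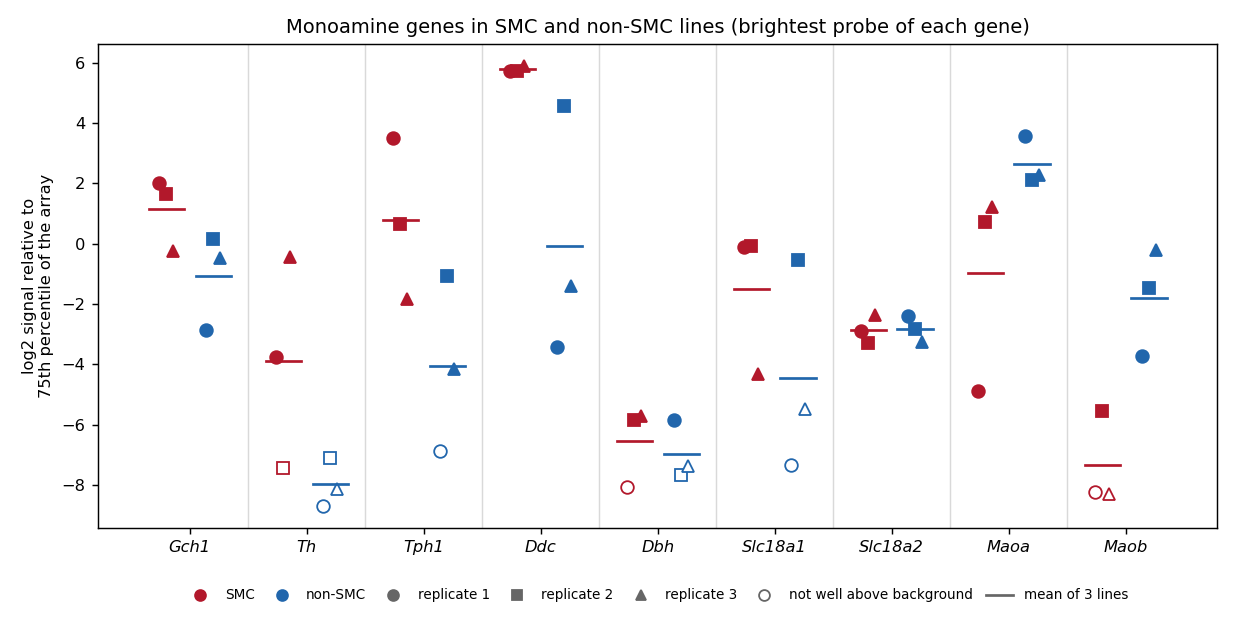
Log2 signal relative to the 75th percentile of the array (vertical axis) for the brightest probe of each gene; SMC lines are drawn left in red and non-SMC lines right in blue, symbols mark replicates, open symbols mark signals not well above background, and bars are means of 3 lines. Ddc lies between 5.71 and 5.89 in SMC lines, Maoa and Maob lie lower in every SMC line than in any non-SMC line, and heights of different genes are not comparable.

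The cofactor gene Gch1 was measured on all 6 arrays by both of its probes. By the brighter probe it read 2.01, 1.66 and -0.23 in SMC replicates 1 to 3, against -2.87, 0.17 and -0.47 in non-SMC replicates 1 to 3. SMC replicate 3 fell inside the non-SMC range by this probe. The difference was 4.87, 1.49 and 0.23 in pairs 1, 2 and 3, and the fitted value of 2.20 ± 1.01 did not pass (limma adjusted p = 0.252). Without pair 1 it was 0.86.

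By the other Gch1 probe the SMC values of 1.64, 1.23 and 0.33 all lay above the non-SMC values of -4.12, -0.31 and -1.94. That probe gave 3.19 ± 0.95 in a fit with each probe on its own (limma adjusted p = 0.143). The 2 probes therefore disagree on whether the groups overlap, which turns on SMC replicate 3.

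Tph1, the hydroxylase of serotonin-producing cells outside the brain, was spread widely within both groups. It read 3.51, 0.65 and -1.85 in SMC replicates 1 to 3, against -6.88, -1.08 and -4.16 in non-SMC replicates 1 to 3, the first of the non-SMC signals not being well above background. SMC replicate 3 lay below non-SMC replicate 2, so the groups overlapped, although each SMC line lay above its own partner, by 10.38, 1.73 and 2.31. The difference of 4.81 ± 1.98 did not pass (limma adjusted p = 0.218) and was 2.02 without pair 1.

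The second Tph1 probe was well above background only in SMC replicates 1 and 2, at -1.54 and -4.60. It was not tested. By it SMC lines were at least 2.92-fold higher on average, a value that rests on replicates 1 and 2, since SMC replicate 3 read -8.29, against -8.17 in its partner. Neuronal Tph2 was not tested, with signals of -6.94, -8.04 and -7.75 in SMC replicates 1 to 3, against -6.40, -6.80 and -6.72 in non-SMC replicates 1 to 3.

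Th, the hydroxylase of catecholamine synthesis, was detected in only 2 lines, both SMC. Its probe is printed in 10 spots on the array, which gives each line a measure of technical spread. The mean over spots was -3.76, -7.44 and -0.43 in SMC replicates 1 to 3, with spot SDs of 0.14, 0.78 and 0.06. In non-SMC replicates 1 to 3 it was -8.69, -7.09 and -8.13, with spot SDs of 0.25, 0.90 and 0.20. All 10 spots were well above background in SMC replicates 1 and 3, none in SMC replicate 2 and non-SMC replicates 1 and 3, and 1 in non-SMC replicate 2.

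The spot SDs measure technical spread within an array and not the spread between cultures or arrays. Th did not reach the filter, which asks for detection on all 3 arrays of a group, and was therefore not tested. Set against the detection floor of the arrays, SMC lines were at least 5.57-fold higher on average, a value that rests on replicates 1 and 3.

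**Figure D2:**
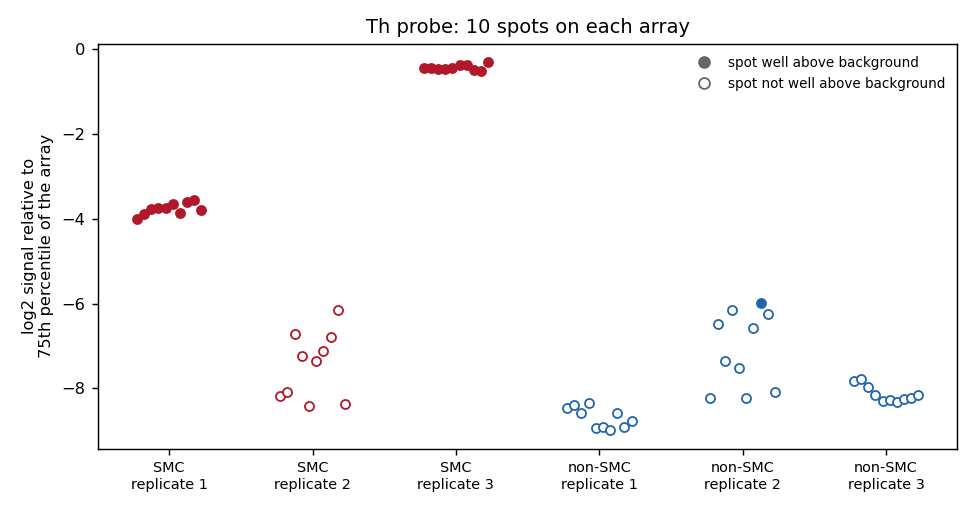
Log2 signal of each of the 10 Th spots on every array, relative to the 75th percentile of the array (vertical axis); SMC lines are red and left, non-SMC lines blue and right, and open circles are spots not well above background. Spots of SMC replicate 3 lie between -0.51 and -0.31 and those of SMC replicate 1 between -4.01 and -3.56, above every spot of the other lines.

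Dbh, the enzyme that commits dopamine to noradrenaline, was near background throughout. It read -8.08, -5.85 and -5.72 in SMC replicates 1 to 3, against -5.86, -7.66 and -7.36 in non-SMC replicates 1 to 3. Only SMC replicates 2 and 3 and non-SMC replicate 1 were well above background, and the pair differences of -2.22, 1.81 and 1.64 had no common sign. Dbh was not tested, since neither group had it on all 3 arrays. The SMC line with the highest Th signal, replicate 3, had a Dbh signal of -5.72, near the floor of -6.31 on its array.

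The 2 vesicle transporters differed in how they were distributed. Slc18a1, the transporter of endocrine cells, read -0.10, -0.07 and -4.33 in SMC replicates 1 to 3, against -7.35, -0.53 and -5.49 in non-SMC replicates 1 to 3. It was well above background on all SMC arrays and, among non-SMC arrays, on that of replicate 2 alone. The upper values were those of SMC replicates 1 and 2 with non-SMC replicate 2, and SMC replicate 3 lay 4.26 below the highest SMC line. The difference was 7.25, 0.45 and 1.16 in pairs 1, 2 and 3, and 2.96 ± 1.54 in the fit (limma adjusted p = 0.294). It was 0.81 without pair 1.

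Slc18a2, the transporter of neurons and mast cells, was measured on all 6 arrays and had an ordinary spread. Its brighter probe read -2.89, -3.30 and -2.37 in SMC replicates 1 to 3, against -2.39, -2.82 and -3.27 in non-SMC replicates 1 to 3, so the groups overlapped fully. The SD was 0.47 between SMC and 0.44 between non-SMC lines, close to the medians of 0.39 and 0.49 over all features. Its difference was -0.02 ± 0.43 (limma adjusted p = 0.977), and the second probe gave 0.08. Of 6 mast cell markers on the array, Cpa3, Tpsb2, Cma1 and Ms4a2 were well above background in no line. Of the other 2, 1 was well above background in SMC replicate 3, 2 in non-SMC replicate 1 and 1 in non-SMC replicate 3. The summed signal of the 6 was 0.0242 to 0.0499 in SMC lines and 0.0346 to 0.113 in non-SMC lines.

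The monoamine oxidase genes, which are neighbours on chromosome X, were lower in every SMC line than in any non-SMC line. Maoa read -4.89, 0.73 and 1.22 in SMC replicates 1 to 3, against 3.57, 2.12 and 2.28 in non-SMC replicates 1 to 3, all well above background. The pair difference was -8.47 in pair 1, -1.39 in pair 2 and -1.06 in pair 3. SMC replicate 1 had the lowest Maoa signal, and the SMC lines' SD of 3.40 was exceeded by 0.831% of features. The difference was -3.64 ± 1.72 (limma adjusted p = 0.26), and -1.22 without pair 1.

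Maob was lower in SMC in each pair. It read -8.23, -5.54 and -8.29 in SMC replicates 1 to 3, against -3.74, -1.47 and -0.21 in non-SMC replicates 1 to 3. It was well above background on all non-SMC arrays and, among SMC arrays, on that of replicate 2 alone, so the fit for Maob rests in part on dim SMC signals. The pair differences were -4.49, -4.06 and -8.08. In pairs 1 and 3 the SMC signal was not well above background, so the sizes are not set against those of Maoa.

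The fitted Maob difference of -5.54 ± 0.93 had the smallest p of the 7 tested genes but did not pass (limma adjusted p = 0.0759, unadjusted p = 0.00383). It passed without the pair in the fit (limma adjusted p = 0.0479) and with median scaling (-5.62, limma adjusted p = 0.03). With dim signals set to the detection floor it was -4.27, and -1.87 with normexp background correction. On the shared slide it was -6.04. The fibroblast marker sum, given above, was likewise higher in every non-SMC line than in any SMC line. So were the sums of 5 smooth muscle markers, at 8.07 to 12.5 in SMC lines and 28.8 to 88.2 in non-SMC lines. The sums of 4 platelet markers were low and barely parted, at 0.0351 to 0.0714 in SMC lines. In non-SMC replicates 1 to 3 they were 0.187, 0.0742 and 3.14. Of these 4 markers, 1 was well above background in each SMC line, and 2, 2 and 3 in non-SMC replicates 1 to 3. The part of these markers in the Maoa and Maob values was not tested.

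**Figure D3:**
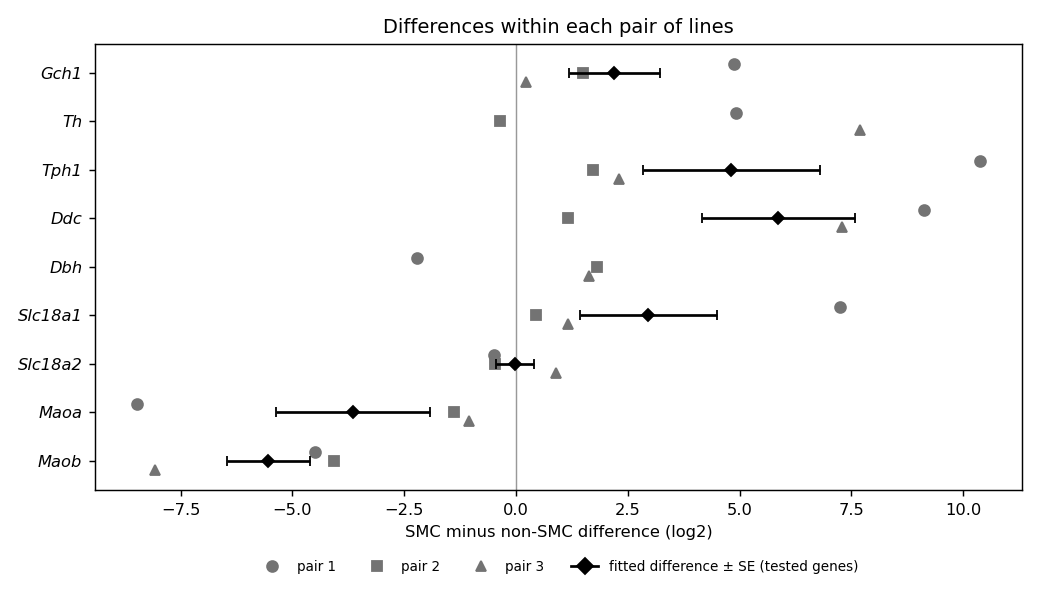
SMC minus non-SMC difference in log2 signal (horizontal axis) for the brightest probe of each gene, by pair (grey symbols), with the fitted difference ± SE for the 7 tested genes (black diamonds). Tph1, Ddc, Slc18a1 and Gch1 are positive and Maoa and Maob negative in all 3 pairs, with pair 1 the farthest from 0 for Ddc, Tph1, Slc18a1, Gch1 and Maoa.

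Of the 9 genes, 7 entered the test, and 0 passed in either direction with limma at an adjusted p under 0.05, against 3.19% of the 19858 features (0.156% higher and 3.03% lower in SMC). At an unadjusted p under 0.05 there were 2, Ddc and Maob, against 26.7% of features. With the values of all SMC lines above all non-SMC lines there was 1 tested gene, Ddc, against 22.8% of features. With all below there were 2, Maoa and Maob, against 15.4%. Higher in SMC in all 3 pairs were 4 tested genes, Ddc, Tph1, Slc18a1 and Gch1, against 33.6% of features, and lower in all 3 pairs were Maoa and Maob, 2 genes, against 21.9%. Over the 7 tested genes the median difference was 2.20, beside 0.18 over all features. Tph1 and Slc18a1 entered through the SMC arrays alone and Maob through the non-SMC arrays alone, so these counts and this median are descriptions. The lines differed in which genes were high. SMC replicate 1 had the highest Tph1 and the lowest Maoa signal of all 6 lines, SMC replicate 3 had the highest Th signal, and non-SMC replicate 2 had the highest Ddc, Tph1, Slc18a1 and Gch1 signals among non-SMC lines.

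Genes around the core chain were read from 6 fixed lists with 84 genes, of which 79 were on the array and 38 were tested; 0 were higher and 2 lower in SMC by limma, and 18 had an unadjusted p under 0.05, beside 0.156%, 3.03% and 26.7% of all features. Some of the 38 entered through the arrays of 1 group alone, so the list counts and medians are descriptions. In the list of 7 genes that make or recycle tetrahydrobiopterin beside Gch1, none passed and the median difference was -0.05. The largest differences were negative, unlike that of Gch1. Spr, sepiapterin reductase, the last enzyme of cofactor synthesis, read 0.44, 0.08 and -0.57 in SMC replicates 1 to 3, against 3.07, 1.71 and 2.22 in non-SMC replicates 1 to 3. Its groups did not overlap, at -2.35 ± 0.37 (limma adjusted p = 0.0691). Gchfr, which encodes the feedback regulator of GTP cyclohydrolase, differed by -1.41 ± 0.49 (limma adjusted p = 0.178).

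Among other breakdown enzymes, 1 of 7 tested genes was lower and the median was -0.56. Aoc3, a copper amine oxidase of the cell surface that acts on primary amines, read -6.99, -5.04 and -4.90 in SMC replicates 1 to 3, against -1.26, -1.06 and -0.95 in non-SMC replicates 1 to 3. Its difference of -4.55 ± 0.50 passed (limma adjusted p = 0.0331), and it was well above background on 2 of 3 SMC arrays. Aoc3 therefore entered the test through the non-SMC arrays alone, where it was higher. The call was lost without any 1 of the 3 pairs, on the shared slide alone and without the filter on dim probes. Without pair 3 no feature of the array passed in either direction. Among 3 tested genes for other synthesis steps none passed. The largest differences were those of Moxd1, a relative of Dbh, at -2.99 ± 1.56, and of the histamine-forming decarboxylase Hdc, at -0.57 ± 0.93 (limma adjusted p = 0.295 and 0.724). Neither had a common sign over pairs 1 to 3, at 1.27, -4.22 and -6.03 for Moxd1 and 1.93, -1.48 and -2.16 for Hdc. Moxd1 was not well above background in non-SMC replicate 1.

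None of the 3 tested transporters passed. Slc29a4, the plasma membrane monoamine transporter, read -0.15, -1.14 and 0.10 in SMC replicates 1 to 3, against -6.28, -2.79 and -2.82 in non-SMC replicates 1 to 3, without overlap, at 3.56 ± 0.97 (limma adjusted p = 0.136). Slc18b1, a vesicular polyamine transporter related to the vesicular amine transporters, differed by -2.08 ± 0.42 (limma adjusted p = 0.103). Of 33 receptor genes 8 were tested and none passed, with a median of -0.50. Hrh3, the histamine H3 receptor, had the largest difference, reading 2.27, 2.25 and 2.85 in SMC lines and -5.05, 0.45 and -2.84 in non-SMC lines, at 4.94 ± 1.18 (limma adjusted p = 0.12). Adra1b, an alpha-1 adrenoceptor, followed at -3.82 ± 0.78 (limma adjusted p = 0.104). It read -5.69, -8.50 and -5.72 in SMC replicates 1 to 3, against -1.41, -3.15 and -3.88 in non-SMC replicates 1 to 3. SMC replicate 2 was not well above background, so Adra1b entered through the non-SMC arrays alone and its difference rests in part on dim SMC signals.

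Of 16 transcription factors of monoamine-producing cells 10 were tested, and 1 was lower, with a median of 2.11 and 8 positive differences, beside 3.03% lower and 11589 of 19858 positive over all features; this list shares members with the neuroendocrine markers above. Gata3, a regulator of sympathetic neuron development, was well above background on no SMC array, at -8.33, -8.17 and -8.18, and on every non-SMC array, at -3.10, -2.59 and -1.25. It was at least 15.8-fold lower in SMC lines (limma adjusted p = 0.0172). Gata3 entered the test through the non-SMC arrays alone, and Insm1 and Lmx1b through the SMC arrays alone. The call, the counts and the median of this list are therefore descriptions. The call was lost without pair 1, without pair 3 and with normexp background correction. Without pair 3 no feature passed in either direction. Among probes detected on all arrays Gata3 was not tested.

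**Figure D4:**
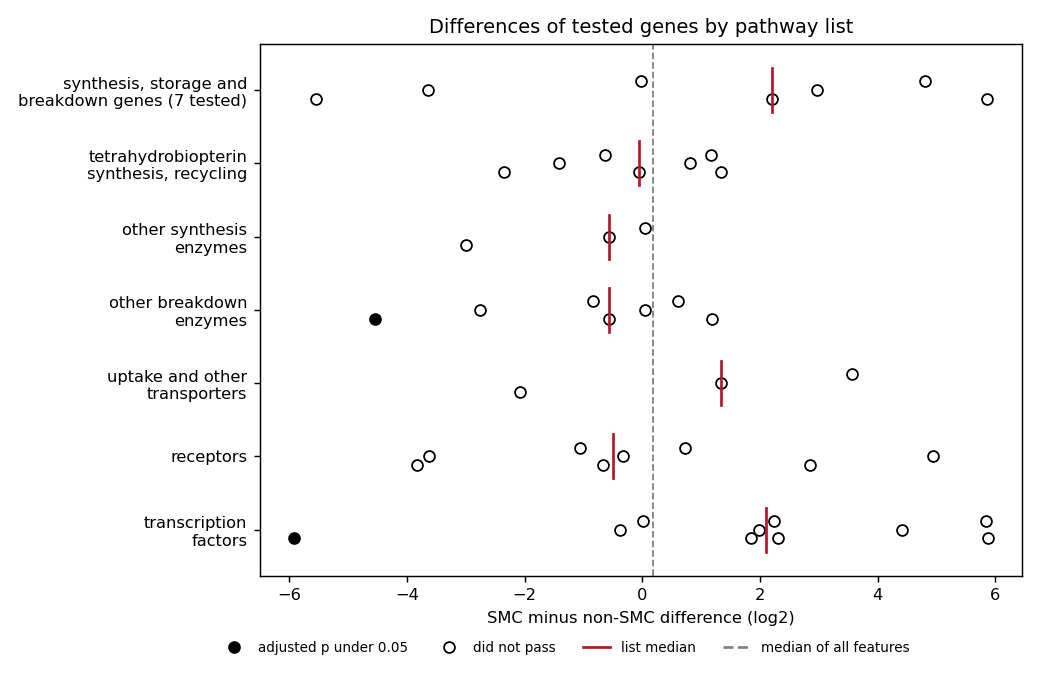
SMC minus non-SMC difference in log2 signal (horizontal axis) for each tested gene of the core set and of the 6 surrounding lists (rows); filled circles passed at an adjusted p under 0.05, red bars are list medians and the dashed line is the median of all features, 0.18. Filled circles appear only for Aoc3 among other breakdown enzymes and Gata3 among transcription factors.

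The genes whose 6 array values were most like those of each tested gene are given as a description, since over 6 arrays many of the 13323 other named genes tested run alike. Ddc was closest to Cacna2d3 and Fam155a (Pearson r = 0.999 for both), and 483 genes had an r over 0.95 with it. Tph1 was closest to Col9a3 and Gps2 (0.999 and 0.996), with 138 genes over 0.95. Slc18a1 was closest to Ap3d1 and Serpinb12 (0.999 and 0.997), and Maob to Pdgfd and Lrp6 (0.999 and 0.994). Maoa was closest to Zfp455 and Tbx15 (0.996 and 0.993), with 54 genes over 0.95, and Gch1 to Mon1b and Pnpla2 (0.99 for both). Slc18a2 had 9 genes over 0.95, the closest being Glce and Nr2f2 (0.981 and 0.98).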

How the data were processed

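RNA of 6 lines was hybridised to 1-colour (Cy3) Agilent arrays of design 014868, quantified with Feature Extraction 10.7.3.1 per the file headers (10.7 per the submitters' processing notes). The deposited processed intensity is background-subtracted within each array, per the file headers, and not normalized between arrays; spot and background median intensities are as deposited. The deposited log2 table has equal quantiles in all columns (median 5.07), and each column correlated at 0.996 or more with its own array; how the authors made it is not given in the sources used here.

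Flagged outlier spots and 1639 control spots were dropped, spots of a probe were averaged as log2, and each array's 75th percentile (485 to 696 intensity units) was subtracted. A probe was well above background if over 0.5 of its usable spots were, and was kept if so on all arrays of at least 1 group. Transcript accessions, matched without versions to RefSeq (GRCm38.p6), named 27479 probes and left 13695 unnamed; the array files carry no symbol. The headers name build mm9, so coordinates are printed only for RefSeq's own windows. The brightest kept probe stood for a gene.

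The test was limma 3.58.1 (R 4.3.3) with pair and group, two-sided, Benjamini-Hochberg adjusted over 19858 features, threshold 0.05, with 2 residual degrees of freedom; the fit was tested on simulated data. Pairs come from the labels' pair tag. Deviations from group means correlated at -0.01, 0.14 and 0 within pairs 1 to 3. Between SMC and non-SMC lines of different pairs they correlated at -0.15 to 0.13, so partners were not clearly more alike by this measure. For "at least" folds, each array of the dim group was given its own signal or, if higher, the lowest signal well above background on that array (-6.71 to -6.04), and the mean was set against that of the bright group. The number of arrays limits the precision. Genes and lists were chosen with earlier results of these data known. Named were the 9 genes, per list up to 4 genes past the threshold or else the 2 largest differences, and per tested gene the 2 most correlated genes; Tph2 and the genes of the closing section were added on the basis of their values. Alternatives covered normalization, background correction (normexp, offset 50, on median spot signals, as the files hold no mean), the deposited values, filters, probe choice, pairing, slide, dim signals and left-out lines.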

Additional observations from a re-analysis of the deposited data

How the results depend on the processing

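Over 16 alternatives, each fitted wherever the gene was kept, the 7 tested genes gave 109 values, of which 3 changed sign, all for Slc18a2 (0.03 with the mean of a gene's probes, 0.20 and 0.21 without replicate 2 and without replicate 1). Past the threshold were 4 values: Ddc without pair 2 and without non-SMC replicate 2, and Maob with median scaling and with no replicate block. The ranges were 4.14 to 8.21 for Ddc, 2.02 to 6.35 for Tph1, 0.81 to 4.92 for Slc18a1, 0.86 to 3.18 for Gch1, -0.49 to 0.21 for Slc18a2, -4.93 to -1.22 for Maoa and -6.28 to -1.87 for Maob. Dbh, untested, ranged from -0.29 to 1.73, and Th from 1.18 to 6.31. Tph1, Slc18a1 and Maob have no value among probes well above background on all 6 arrays.

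Counts over all features, higher and lower in SMC (31 and 602 as reported), were 240 and 975 with median scaling, 277 and 975 with no replicate block, 7 and 383 without a filter, which tests more probes, and 4 and 135 among probes detected on all 6 arrays. The higher count was 54 with normexp, 54 with each probe its own feature, 9 with slide as a block beside the pair and 20 on the shared slide only. Leaving out 1 pair gave 0 to 523 higher and 0 to 496 lower (0 and 0 by limma without pair 3, with 925 and 1743 at an unadjusted p under 0.05), and leaving out non-SMC replicate 2 alone, without the pair, 1561 and 1147. Of the 9 genes, 1 was lower with median scaling and 1 with no replicate block, and 0 or 1 was higher when a replicate was left out. In the surrounding lists (0 higher and 2 lower as reported), receptors had 2 lower with median scaling, 1 lower with no replicate block, 1 higher without pair 2, and 2 higher and 1 lower without non-SMC replicate 2. Cofactor genes had 1 lower with normexp, with no replicate block and without non-SMC replicate 2, transporters 1 lower with no replicate block, other breakdown enzymes 2 lower with median scaling, and transcription factors 2 higher without non-SMC replicate 2. The cause was not tested. The median over all features moved from 0.18 to between 0.08 and 0.23. Signals near background limit Th, Dbh, Maob and the second Tph1 probe.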

Other observations

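Several genes of the surrounding lists were well above background in 2 to 4 lines, did not reach the filter and were not tested; they were chosen after their values were seen. Aoc1, the diamine oxidase that degrades histamine and putrescine, read 2.84, 2.11 and -7.22 in SMC replicates 1 to 3, against -6.91, -0.41 and -7.32 in non-SMC replicates 1 to 3, so pairs 1 and 2 held every detected signal. Htr1d, a serotonin receptor, read -2.91, 1.43 and -6.62 in SMC lines and -6.91, -1.92 and -4.67 in non-SMC lines, highest in SMC replicate 2. Drd4, a dopamine receptor, was well above background in SMC replicates 1 and 3, at -0.43 and -3.78, where Th was detected too, and in non-SMC replicate 2, at -4.59. It read -7.49 in SMC replicate 2 and -9.02 and -7.24 in non-SMC replicates 1 and 3.

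Slc6a4, the serotonin transporter of the plasma membrane, was detected in SMC replicate 3 at -3.36 and in non-SMC replicate 2 at -3.74, against -8.21 and -8.08 in SMC replicates 1 and 2 and -6.85 and -7.57 in non-SMC replicates 1 and 3. Slc6a2, the noradrenaline transporter, was detected only in the 2 lines of pair 1, at -4.00 in the SMC and -4.94 in the non-SMC line. Isl1, a transcription factor of sympathetic and endocrine cells, was likewise detected only in pair 1, at -1.86 in the SMC and -4.38 in the non-SMC line. Pcbd1, which recycles tetrahydrobiopterin and was tested, read 2.39, 2.05 and 0.98 in SMC replicates 1 to 3, against -5.37, 3.51 and 3.25 in non-SMC replicates 1 to 3; its difference of 1.34 ± 2.27 (limma adjusted p = 0.734) had opposite signs in pair 1 and in pairs 2 and 3.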
